A study of Mus musculus with 6 samples.

Results

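The genes described here are 46 mouse genes that mark or serve macrophages and neutrophils, the phagocytes of the myeloid blood lineage. They were chosen by symbol, as complement C1q chains, Fc receptors and their adaptors, scavenger and pattern recognition receptors, lysosomal genes and granule genes of granulocytes. All 46 were found among the 35976 genes listed in each count table. RNA was measured in bulk in 6 cultures of dorsal root ganglion (DRG) neurons from lumbar ganglia of wild-type C57BL/6 mice of both sexes, 2 to 3 months old. The ganglia were digested with enzymes, strained and plated with serum and growth factors, and the methods describe no sort for neurons. After 24 h on the dish, 3 cultures received vehicle and 3 received HC-HA/PTX3 at 15 µg/mL for 24 h. HC-HA/PTX3 is a complex of hyaluronan, inter-alpha-inhibitor heavy chain and pentraxin 3 purified from human amniotic membrane. The study asked how short and prolonged exposure to it alters the transcripts of these neurons. Only the prolonged exposure, of 24 h, is covered here. The cultures of each group are numbered 1 to 3. The study calls its samples biological replicates, but the labels do not say whether these came from separate animals. The main fit compares cultures of the same number, so its p-values measure how far the treatment change varied between these pairs. They cannot be read as a spread between animals.

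Total counts were 42516054, 42617496 and 54117547 in vehicle cultures 1 to 3, and 37998071, 37434266 and 38420247 in treated cultures 1 to 3. Levels are given as CPM, counts scaled to library size with TMM factors, where 1 CPM stands for 37.1 to 56.0 counts depending on the culture. A count of 0 would allow up to 3 counts, or 0.0536 to 0.0808 CPM, for counting error only. Levels of different genes were compared only as CPM per kilobase (kb) of exon.

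Macrophages live in the DRG around the cell bodies of sensory neurons, where they take up debris and respond to nerve injury. Neutrophils are short-lived cells of the blood that store antimicrobial proteins in granules. Both cell types detect microbes and damaged tissue through receptors that signal by ITAM motifs or Toll-like receptors, and both kill by means of the NADPH oxidase.

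The label of the cultures was checked against marker genes. The 10 neuron markers summed to 7204, 6374 and 6922 CPM in vehicle cultures 1 to 3 and to 7495, 6749 and 7722 CPM in treated cultures, with Tubb3, a neuronal tubulin, the most abundant per kb. The 46 macrophage and neutrophil genes summed to 265, 305 and 286 CPM in the vehicle cultures and to 255, 309 and 242 CPM in the treated ones. They held between 0.0248% and 0.0313% of all counts in a culture. Per kb of exon, Tubb3 stood at 651 CPM with vehicle and 735 with treatment, against 29.9 and 30.3 for Lyz2, the most abundant of the 46. None of the 46 was at 0 in any culture. Markers of other blood cells held few counts. Summed counts over cultures 1 to 3 were 48, 90 and 165 with vehicle and 78, 80 and 93 with treatment for 7 T cell markers, of which Lck was the most abundant per kb and Cd3g was at 0 throughout. For 5 NK cell markers, led by Klrb1c, they were 12, 15 and 8 against 4, 11 and 0, with Ncr1 and Gzma at 0 throughout. The 5 B cell markers, led by Cd79a, held 47 to 78 counts, the 5 mast cell markers, led by Cpa3, 19 to 44, and the 4 erythroid markers, led by Hbb-bs, 3 to 43, with no marker of these lists at 0 throughout.

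Per kb of exon, Lyz2, the lysozyme of macrophages and neutrophils, was the most abundant of the 46 genes at 29.9 CPM per kb with vehicle and 30.3 with treatment. Ctss, a lysosomal cysteine protease, stood at 11.4 and 13.4, and Cd68, a lysosomal membrane glycoprotein, at 11.5 and 11.4. C1qb and C1qa came next, at 9.78 and 9.29 CPM per kb with vehicle. The scavenger receptor Marco was lowest at 0.0417 CPM per kb with vehicle, from 3, 1 and 8 counts in vehicle cultures 1 to 3 and 1, 5 and 1 in treated ones. Marco and the cathelicidin gene Camp, with 6, 11 and 8 counts against 3, 8 and 5, did not pass the filter on low counts, and the other 44 genes were tested.

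**Figure D1:**
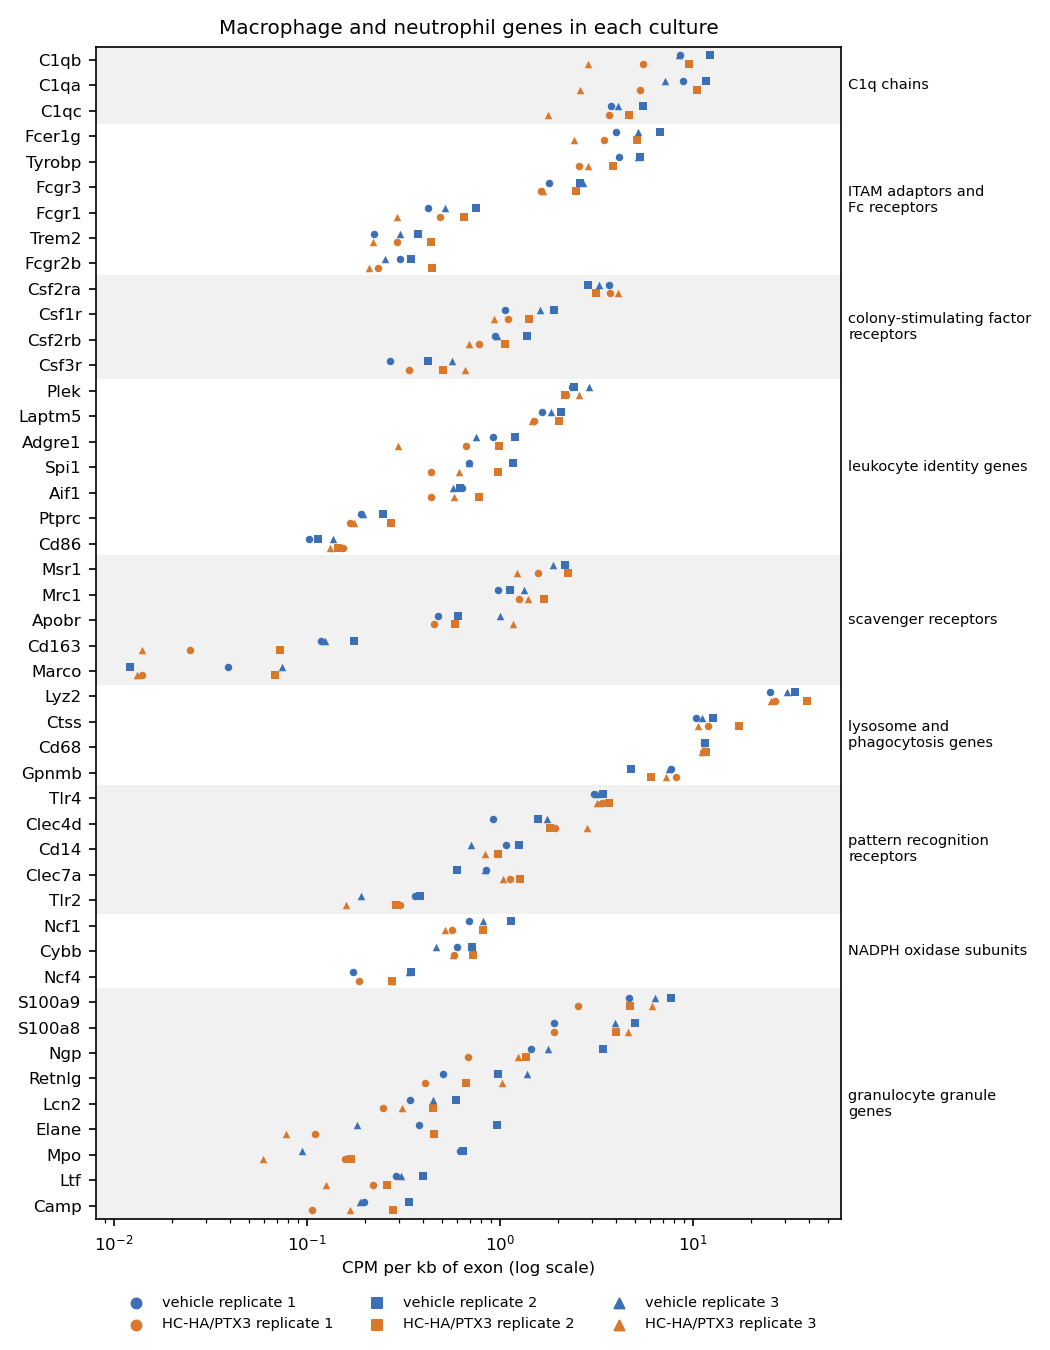
Level of each of the 46 genes in each culture as CPM per kb of exon on a log axis, grouped by role, with vehicle in blue, HC-HA/PTX3 in orange and the replicate number given by the symbol. Lyz2 lies highest and Marco lowest, and the orange points of Cd163 all lie left of its blue points.

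Treated and vehicle cultures of the same number were compared with edgeR, and a gene was called when its adjusted p-value was under 0.05 and its absolute log2 fold change over 0.5. Of the 44 genes tested, 7 were called lower after HC-HA/PTX3, or 15.9%, beside 5.38% of all 18277 genes tested. These were C1qa, C1qb, Tyrobp, Cd163, Ngp, Mpo and Elane. Clec4d alone was called higher, or 2.27% of the 44, beside 3.32% of all genes. The fitted change was below 0 for 31 of the 44 and above 0 for 13, with a median log2 change of -0.23, against -0.01 over all genes, where 51.1% were below 0. The median was -0.13 without replicate 3 and -0.15 when at least 10 counts were asked of every culture. For 9 of the 44, 6 of them below 0, the sign turned in at least 1 alternative fit. In 21 of the 44, or 47.7%, the treated culture was below its vehicle partner in all 3 pairs, beside 28.7% of all genes, and in 6, or 13.6%, it was above, beside 25.2%. These are bulk libraries, in which fewer cells of a type and less RNA per cell cannot be told apart.

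The calls rest on comparing cultures of the same number. With the number left out of the edgeR fit, 0 of the 44 genes and 0 of all genes were called, although unadjusted p-values were under 0.05 for 5 of the 44 and for 2089 of all genes. These shares were 11.4% for both. The paired fit had 19 such genes among the 44, or 43.2%, beside 33.2% of all genes. DESeq2 with the pairing called 4 lower and 0 higher, beside 4.67% and 2.04% of all genes, and limma-voom with the pairing 7 and 1, beside 5.26% and 3.32%. ComBat-seq followed by limma-trend called 10 and 2, beside 6.1% and 5.54%, with Adgre1, Fcer1g, Ltf and S100a9 lower and Clec7a higher in addition, and without C1qa. Without replicate 1, edgeR called Cd163 lower and no gene of the list higher. Without replicate 2, it called C1qa, C1qb, Cd163 and Msr1 lower and Clec4d higher, and without replicate 3, Cd163, Ngp, Mpo and S100a9 lower and Clec7a higher. Cd163 was thus the gene called in each of these 3 fits, which called 3.4%, 5.35% and 4.26% of all genes lower and 1.34%, 3.15% and 2.62% higher.

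**Figure D2:**
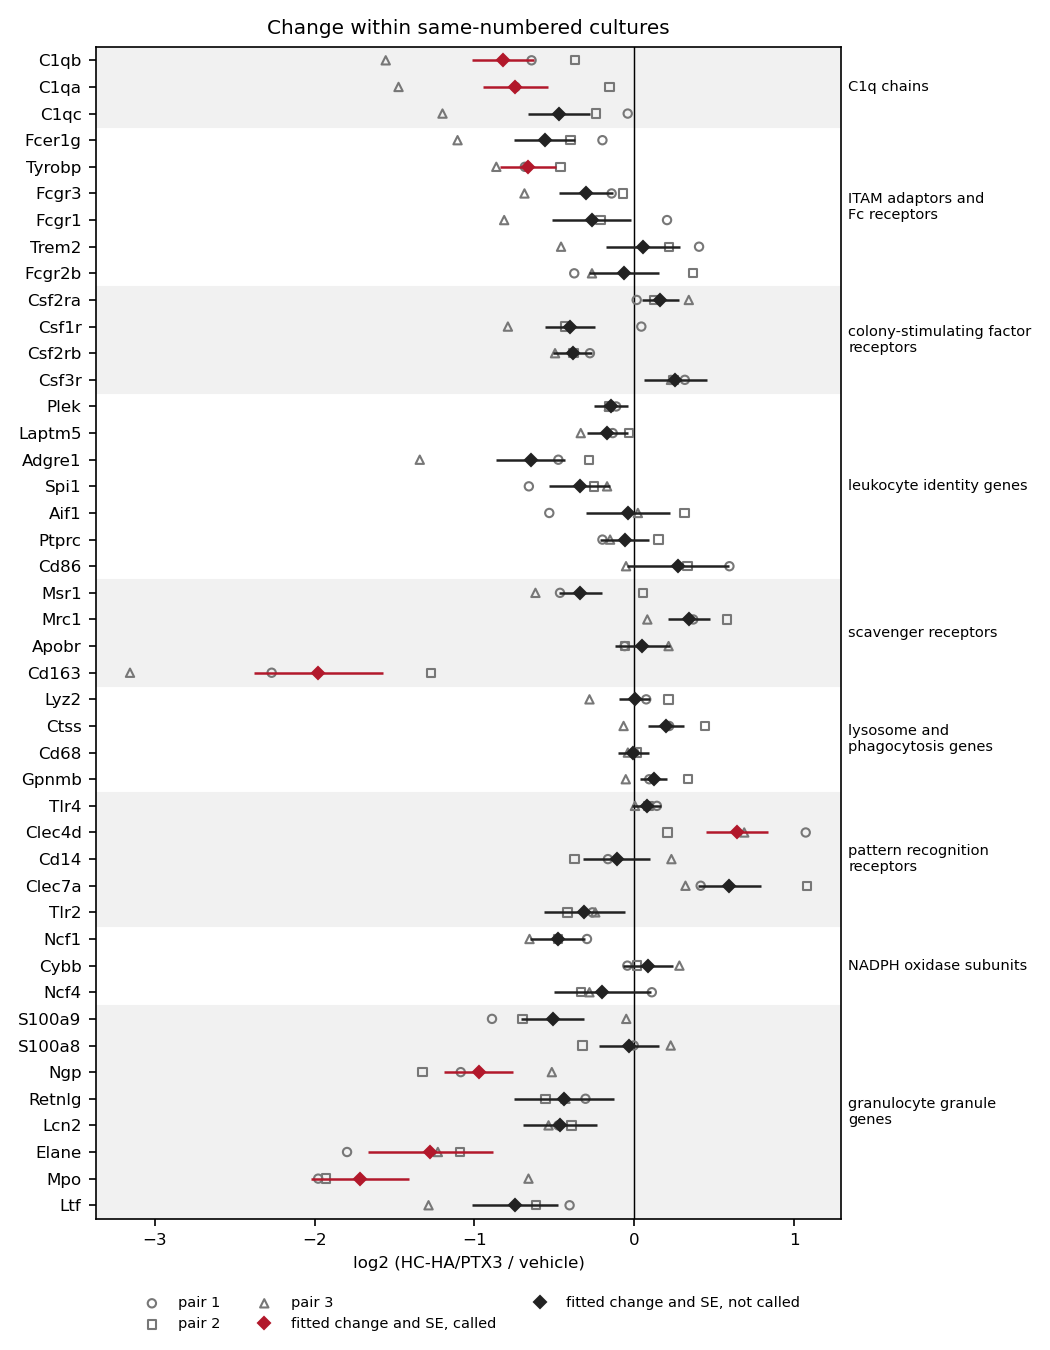
Log2 ratio of treated over vehicle level for the 44 tested genes, with open symbols for the 3 pairs of same-numbered cultures and diamonds for the fitted change with its standard error, red where called. The called genes lie left of 0 in all 3 pairs, except Clec4d, which lies right of 0 in all 3.

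Of 5 fibroblast markers, the collagens Col1a1 and Col3a1 were called lower, or 40%, beside 5.38% of all genes. The 3 others were not called. The 5 markers summed to 1488, 1573 and 644 CPM in vehicle cultures 1 to 3 and to 762, 1041 and 234 CPM in treated ones, or 0.512, 0.662 and 0.363 times the vehicle partner. Col1a1 and Col3a1 held 642 and 669 CPM of the sum in vehicle culture 1. Dcn, Lum and Pdgfra had log2 changes of -0.09, -0.31 and -0.25, and the median of the 5 was -0.31. Col1a1, the most abundant of them per kb with vehicle, where Col3a1 led with treatment, had a log2 change of -1.62 ± 0.17 (SE), adjusted p = 0.000547, and none of the 5 was at 0. Col1a1 and Col3a1 were called when any replicate number was left out, and not without the pairing, with adjusted p-values of 0.439 and 0.742. The fitted log2 change of Col3a1 was -0.96 over the 3 pairs together and -0.61 without replicate 3. The 8 satellite glia markers, led by Apoe, summed to 2180, 1265 and 508 CPM against 2066, 1282 and 510, with the spread lying between replicate numbers. EdgeR called 0 of the 8, beside 5.38% of all genes called lower and 3.32% called higher. It gave 4 of the 8, or 50%, an unadjusted p-value under 0.05, beside 33.2% of all genes. Fabp7, Kcnj10 and Glul passed the adjusted p-value but not the fold threshold, with log2 changes of -0.40 (adjusted p = 0.0154), -0.34 (adjusted p = 0.0108) and 0.28 (adjusted p = 0.0198), each of 1 sign in all 3 pairs. They were named after their values were seen. The 5 endothelial markers, led by Cdh5, summed to 228, 248 and 274 CPM against 229, 276 and 249. The part of fibroblast and glial RNA in the results on macrophage and neutrophil genes was not tested.

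**Figure D3:**
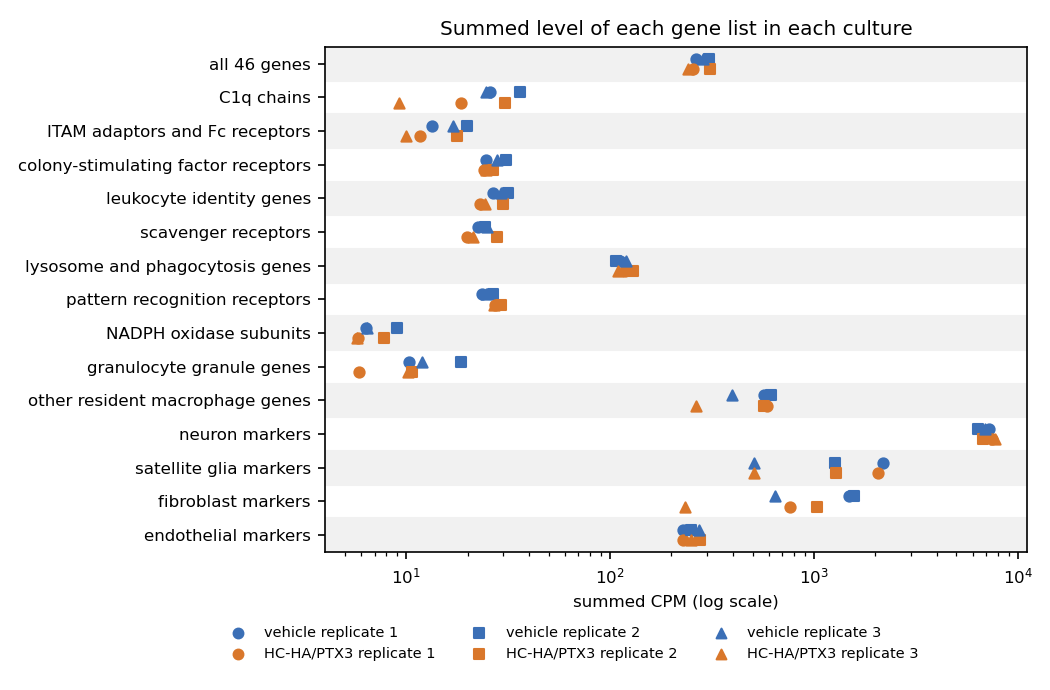
Summed CPM of each gene list in each of the 6 cultures on a log axis, vehicle in blue, HC-HA/PTX3 in orange, replicate number by symbol. The C1q chains and the fibroblast markers of treated culture 3 lie lowest in their lists, at 9.24 and 234 CPM, and the neuron markers stay between 6374 and 7722 CPM.

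C1qa, C1qb and C1qc encode the chains of C1q, the molecule that starts the classical complement pathway and is made largely by macrophages. They lie side by side on the minus strand of mouse chromosome 4, C1qa at chr4:136895917-136898803, C1qc at chr4:136889804-136893065 and C1qb at chr4:136880129-136886187 (mm10), each with 3 blocks of exon. C1qb stood at 9.34, 13.4 and 9.18 CPM in vehicle cultures 1 to 3 and at 5.98, 10.4 and 3.12 CPM in treated ones. Every treated culture was below its partner, culture 3 the most, and treated culture 2 lay above vehicle cultures 1 and 3. The means were 10.6 ± 2.40 and 6.49 ± 3.65 CPM (SD, n = 3 each), and the log2 change within pairs was -0.82 ± 0.19 (SE), adjusted p = 0.0157. C1qa stood at 9.29, 12.2 and 7.48 CPM with vehicle and at 5.55, 10.97 and 2.69 CPM with treatment, again lower in each pair with overlapping groups. Its log2 change was -0.74 ± 0.20 (SE), adjusted p = 0.0302. C1qc was not called, with a log2 change of -0.47 ± 0.19 (SE), adjusted p = 0.119, although its pairs were all below 0, and the log2 change was -0.13 without replicate 3.

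The C1q calls depend on the cultures that enter the fit. Without the pairing the adjusted p-values were 0.575 for C1qb and 0.702 for C1qa. ComBat-seq with limma-trend, a correction of the kind the study used, called C1qb but put C1qa at an adjusted p-value of 0.0508. Without replicate 1 they were 0.0581 and 0.126. Without replicate 3 the log2 changes were -0.48 and -0.41, C1qb being under the fold threshold at an adjusted p-value of 0.0352 and C1qa at 0.0953. In pair 3 the summed C1q level of the treated culture was 0.377 times that of its partner, against 0.718 and 0.837 in pairs 1 and 2.

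Tyrobp and Fcer1g encode adaptors whose ITAM motifs pass signals from receptors without a signalling tail of their own. Tyrobp stood at 2.77, 3.56 and 3.46 CPM with vehicle and at 1.72, 2.59 and 1.90 CPM with treatment. All treated cultures lay below all vehicle cultures, with a log2 change of -0.67 ± 0.17 (SE), adjusted p = 0.0244. The adjusted p-value rose to 0.368 without the pairing, to 0.0672 with DESeq2, and to between 0.0565 and 0.118 when any replicate number was left out. Fcer1g stood at 3.50, 5.91 and 4.54 CPM with vehicle and at 3.04, 4.48 and 2.11 CPM with treatment. Each pair was below 0 and the groups overlapped, and the gene was not called at -0.56 ± 0.19 (SE), adjusted p = 0.0624. ComBat-seq with limma-trend called it, at an adjusted p-value of 0.0335, and without replicate 3 its log2 change was -0.29. Trem2, a lipid receptor that signals through Tyrobp, and the Fc receptors Fcgr1, Fcgr2b and Fcgr3, which bind antibody, were not called, with log2 changes from -0.30 to 0.05.

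Among the receptors for colony-stimulating factors, which govern growth and survival of myeloid cells, 0 of 4 were called by edgeR, and 2 of 4 had an unadjusted p-value under 0.05. Over all genes 5.38% were called lower, 3.32% were called higher and 33.2% had such a p-value. Neither DESeq2, limma-voom nor ComBat-seq with limma-trend called any of them. Csf2ra, the alpha chain of the GM-CSF receptor, stood at 10.6, 8.26 and 9.32 CPM with vehicle and at 10.7, 8.996 and 11.8 CPM with treatment. Csf1r, the receptor for CSF1 and IL-34, stood at 6.17, 11.1 and 9.36 CPM with vehicle and at 6.36, 8.18 and 5.41 CPM with treatment. The pairs of Csf2ra were all above 0 and those of Csf1r mixed, and both genes had overlapping groups. Csf2rb, the shared beta chain, had a log2 change of -0.38 ± 0.12 (SE), adjusted p = 0.0529, and Csf3r, the G-CSF receptor, one of 0.26 ± 0.20 (SE), adjusted p = 0.394. Reads of Csf2rb could be split with its near copy Csf2rb2, which held 318, 339 and 470 counts with vehicle and 257, 239 and 296 with treatment, so its level is uncertain.

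The 7 leukocyte identity genes held no call in edgeR, beside 5.38% of all genes called lower and 3.32% called higher. Of the 7, 1 gene, Adgre1, had an unadjusted p-value under 0.05, or 14.3%, beside 33.2% of all genes. Adgre1 encodes the macrophage surface protein F4/80, and its log2 change of -0.65 ± 0.22 (SE), adjusted p = 0.0625 was called by ComBat-seq with limma-trend but not by DESeq2 or limma-voom, and was -0.36 without replicate 3. Plek, the protein kinase C substrate pleckstrin, stood at 10.6, 10.8 and 12.9 CPM with vehicle and at 9.83, 9.71 and 11.6 CPM with treatment. Laptm5, a lysosomal membrane protein of leukocytes, stood at 6.24, 7.89 and 6.98 CPM with vehicle and at 5.69, 7.70 and 5.54 CPM with treatment. Both were slightly below their partners in each pair, with overlapping groups and log2 changes of -0.14 and -0.17. Spi1, which encodes the myeloid transcription factor PU.1, Ptprc, which encodes CD45, Aif1 and the costimulator Cd86 had log2 changes from -0.34 to 0.27.

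Cd163, the receptor that clears haemoglobin bound to haptoglobin, showed the largest fitted change of the 44 genes. It held 26, 41 and 38 counts in vehicle cultures 1 to 3 and 5, 15 and 3 in treated ones, or 0.649, 0.954 and 0.679 CPM against 0.135, 0.396 and 0.0762 CPM. All treated cultures lay below all vehicle cultures, and treated culture 3 was at the counting floor. The log2 change was -1.98 ± 0.40 (SE), adjusted p = 0.00841, with an adjusted p-value of 0.300 without the pairing and none given by DESeq2. It ranged from -2.64 to -1.61 when each replicate number was left out, with adjusted p-values of 0.0183 to 0.0489. Msr1, a receptor for modified lipoproteins, stood at 13.8, 13.8 and 11.9 CPM with vehicle and at 10.0, 14.3 and 7.77 CPM with treatment, lower in pairs 1 and 3 only. The mannose receptor gene Mrc1 stood at 6.22, 7.19 and 8.45 CPM with vehicle and at 8.03, 10.7 and 8.94 CPM with treatment, above its partner in each pair. Neither gene was called, with log2 changes of -0.34 ± 0.14 (SE), adjusted p = 0.112 for Msr1 and 0.34 ± 0.13 (SE), adjusted p = 0.0977 for Mrc1. Apobr, a receptor for apolipoprotein B, had a log2 change of 0.05.

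The lysosome and phagocytosis genes, which include the most abundant of the 46, held 0 calls among 4 in edgeR, and 0 of the 4 had an unadjusted p-value under 0.05, beside 5.38% of all genes called lower, 3.32% called higher and 33.2% at that p-value. DESeq2, limma-voom and ComBat-seq with limma-trend called none of them either. Lyz2 stood at 33.2, 44.5 and 40.4 CPM with vehicle and at 34.9, 51.5 and 33.3 CPM with treatment. Ctss stood at 14.1, 17.3 and 15.2 CPM with vehicle and at 16.4, 23.6 and 14.5 CPM with treatment. For both genes pairs 1 and 2 were above 0 and pair 3 below, and culture 2 was highest in each group. The log2 changes were 0.00 ± 0.10 (SE), adjusted p = 0.987 for Lyz2 and 0.20 ± 0.11 (SE), adjusted p = 0.246 for Ctss. Cd68 and Gpnmb, a glycoprotein of phagocytes and pigment cells, had log2 changes of -0.01 and 0.12. The direction for Lyz2 and Cd68 changed with the scaling, the filter or the tool. Lyz1, a near copy of Lyz2, held between 2 and 17 counts in a culture.

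Pattern recognition receptors bind microbial molecules. Clec4d, a C-type lectin of myeloid cells that pairs with Fcer1g, stood at 1.47, 2.51 and 2.82 CPM with vehicle and at 3.10, 2.90 and 4.55 CPM with treatment. All treated cultures lay above all vehicle cultures, and the log2 change was 0.64 ± 0.19 (SE), adjusted p = 0.0434. The adjusted p-value was 0.505 without the pairing, 0.0847 with DESeq2, 0.243 without replicate 1 and 0.0927 without replicate 3. Tlr4, the receptor for lipopolysaccharide, stood at 17.01, 19.1 and 17.7 CPM with vehicle and at 18.8, 20.3 and 17.7 CPM with treatment. Its groups overlapped and its log2 change was 0.08 ± 0.09 (SE), adjusted p = 0.594. Clec7a, the beta-glucan receptor dectin-1, was also higher in all treated cultures than in all vehicle cultures but was not called at 0.59 ± 0.20 (SE), adjusted p = 0.0612. Cd14 and Tlr2 had log2 changes of -0.11 and -0.31.

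Groups that did not overlap were few. All treated cultures lay below all vehicle cultures for 4 of the 44 genes, or 9.09%, beside 8.57% of all genes, and above them for 2, or 4.55%, beside 9.44%. The 4 were Tyrobp, Cd163, Ngp and the lactoferrin gene Ltf, and the 2 were Clec4d and Clec7a, with Ltf and Clec7a named after their values were seen. The share below is close to that of all genes.

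Of the NADPH oxidase subunits, 0 of 3 were called by edgeR, beside 5.38% of all genes called lower and 3.32% called higher. DESeq2, limma-voom and ComBat-seq with limma-trend called none of them either. In edgeR, 1 of 3 had an unadjusted p-value under 0.05, or 33.3%, beside 33.2% of all genes. Ncf1, the cytosolic organizer p47phox, stood at 2.55, 4.19 and 3.0 CPM with vehicle and at 2.07, 3.01 and 1.90 CPM with treatment. Each pair was below 0 and the groups overlapped, with a log2 change of -0.48 ± 0.17 (SE), adjusted p = 0.0746. Cybb, the catalytic subunit, stood at 3.47, 4.14 and 2.71 CPM with vehicle and at 3.37, 4.19 and 3.30 CPM with treatment, and Ncf4, the subunit p40phox, had a log2 change of -0.20.

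Of 8 tested granule genes of granulocytes, 3 were called lower, or 37.5%, beside 5.38% of all genes. The median log2 change was -0.63, and the treated culture was below its partner in all 3 pairs for 7 of the 8, or 87.5%, beside 28.7% of all genes. The exception was S100a8, whose sign turned when a replicate number was left out. Mpo encodes myeloperoxidase and Elane neutrophil elastase, enzymes packed into granules while neutrophils mature in bone marrow, and Ngp encodes a granule protein. Mpo held 85, 95 and 18 counts with vehicle and 20, 22 and 8 with treatment, or 2.12, 2.21 and 0.321 CPM against 0.539, 0.580 and 0.203 CPM. Number 3 was lowest in both groups, so the groups overlapped while each treated culture was below its partner. The log2 change was -1.72 ± 0.31 (SE), adjusted p = 0.00444. Ngp stood at 1.77, 4.17 and 2.18 CPM with vehicle and at 0.835, 1.66 and 1.52 CPM with treatment. All treated cultures were below all vehicle cultures, with a log2 change of -0.97 ± 0.22 (SE), adjusted p = 0.0122. Elane held 15, 41 and 10 counts with vehicle and 4, 17 and 3 with treatment, with culture 2 highest in each group. Its groups overlapped, and the log2 change was -1.28 ± 0.39 (SE), adjusted p = 0.0449.

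These granule calls are also tied to the pairing. Without it the adjusted p-values were 0.434 for Mpo, 0.427 for Ngp and 0.639 for Elane. Without replicate 1 they were 0.0542, 0.0641 and 0.173. Without replicate 2 they were 0.0509 for Mpo and 0.108 for Ngp, while Elane did not pass the filter, and without replicate 3 Elane was at 0.0824. Upper-quartile scaling put Elane at 0.0512, and DESeq2 gave it no adjusted p-value.

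The alarmins S100a8 and S100a9, calcium-binding proteins abundant in neutrophil cytoplasm, were the highest of the granulocyte genes per kb. S100a9 stood at 2.45, 4.03 and 3.34 CPM with vehicle and at 1.32, 2.48 and 3.22 CPM with treatment. S100a8 stood at 1.32, 3.47 and 2.73 CPM with vehicle and at 1.32, 2.77 and 3.20 CPM with treatment. Culture 1 was lowest for both genes in each group, and the groups overlapped. Neither was called, with log2 changes of -0.51 ± 0.20 (SE), adjusted p = 0.1001 for S100a9 and -0.03 ± 0.19 (SE), adjusted p = 0.925 for S100a8. Lcn2, Ltf and Retnlg had log2 changes from -0.75 to -0.44, each pair being below 0.

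**Figure D4:**
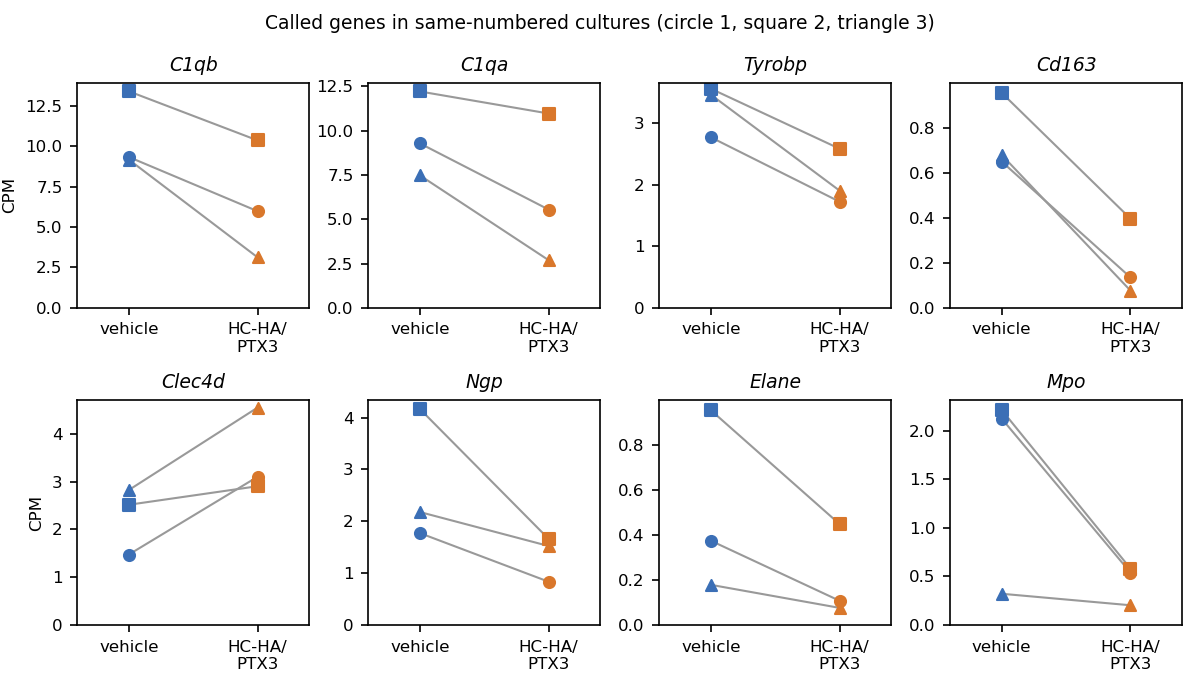
CPM of the 8 called genes in each culture on axes that start at 0, with vehicle on the left, HC-HA/PTX3 on the right and lines joining cultures of the same number. Lines fall in all 3 pairs for 7 genes and rise in all 3 for Clec4d, and Mpo is low in culture 3 of both groups.

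The replicate numbers differed in these genes as in many others. In an F test of the number in the same fit, 17 of the 44 genes passed an adjusted p-value of 0.05, or 38.6%, beside 33.8% of all genes. The share is near that of all genes in this fit. With DESeq2 9 of the 44 passed, beside 5078 of all genes, and with no filter on low counts 26 of 46, beside 7350 of 30347. Mpo passed the F test over the 3 numbers (adjusted p = 0.00225), with fitted log2 differences from number 1 of 0.07 for number 2 and -2.30 for number 3. S100a8 passed it as well (adjusted p = 0.00491), with differences of 1.24 and 1.16. The contrast of single numbers was not tested. Over the 44 genes the median log2 difference of number 2 from number 1 was 0.48, against -0.0035 over all genes, and that of number 3 from number 1 was 0.02, against -0.01.

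Other genes of the same pathways were taken from further lists. Of 15 tested genes of resident macrophages, 4 were called lower, or 26.7%, and 0 higher by edgeR, with a median log2 change of -0.34 and 8 of 15, or 53.3%, at an unadjusted p-value under 0.05. Over all genes these shares were 5.38% and 33.2%. Tmem119, best known as a marker of microglia, had a log2 change of -1.05 ± 0.18 (SE), adjusted p = 0.00416, Stab1, a scavenger receptor, -0.61 ± 0.12 (adjusted p = 0.00742), F13a1, coagulation factor XIII subunit A, -0.66 ± 0.15 (adjusted p = 0.0133) and Cbr2, a carbonyl reductase, -2.58 ± 0.67 (adjusted p = 0.0239). Cbr2 held 13, 15 and 16 counts with vehicle and 0, 5 and 1 with treatment. The list was led per kb by the receptor kinase Axl. The list summed to 567, 614 and 394 CPM with vehicle and to 588, 567 and 265 CPM with treatment, so its sum was below that of the partner in pairs 2 and 3 only.

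Plac8, at -1.76 ± 0.43 (SE), adjusted p = 0.0177, was the only call among 14 tested monocyte and activation genes. It held 22, 43 and 11 counts with vehicle and 10, 7 and 2 with treatment, the last being under the counting floor. The list was led by Cd44 and had a median log2 change of 0.02, with 6 genes below 0 and 8 above. For this and the lists that follow, the share of all genes called was 5.38% lower and 3.32% higher. In the complement list, 1 of 14 was called, Cd55, an inhibitor of complement convertases, which was higher by a log2 change of 0.53 ± 0.11 (SE), adjusted p = 0.00763. Serping1, which inhibits the C1 proteases and is the most abundant complement gene per kb with vehicle, where Cd59a led with treatment, had a log2 change of -0.26 (adjusted p = 0.0255), under the fold threshold. Of 5 other NADPH oxidase genes tested, led by Rac1, Nox4 was called lower, at -0.92 ± 0.17 (SE), adjusted p = 0.00470. Traf6, a ubiquitin ligase downstream of Toll-like receptors, was the call of 18 in its list, led by Irak1, at -0.68 ± 0.09 (SE), adjusted p = 0.00119, a share of 5.56%. Irak3 and Myd88 of the same list passed the adjusted p-value but not the fold threshold and were higher in all 3 pairs, with log2 changes of 0.43 (adjusted p = 0.0171) and 0.30 (adjusted p = 0.0471). Of 2 myeloid growth factor genes tested, 1 was called lower, Csf1, a ligand of Csf1r and the most abundant of its list per kb. Its log2 change was -0.58 ± 0.08 (SE), adjusted p = 0.00165. The other, Il34, was not called, with a log2 change of 0.04 (adjusted p = 0.853). Mmp9, a gelatinase stored in neutrophil granules, was lower at -0.93 ± 0.19 (SE), adjusted p = 0.00884, the call of 8 tested in a list led per kb by Mmp9 itself with vehicle and by Mmp8 with treatment. In that list Mmp8 and Ly6g were above their partners in all 3 pairs but not called, with log2 changes of 0.66 (adjusted p = 0.0768) and 0.43 (adjusted p = 0.490). Of the list, 25% was below its partners in all pairs and 25% above, beside 28.7% and 25.2% of all genes. None of the genes called in these lists was called without the pairing, with adjusted p-values from 0.239 for Traf6 to 0.551 for Stab1. Without replicate 1 the adjusted p-value was 0.105 for F13a1, 0.0954 for Cbr2 and 0.0518 for Mmp9, and Plac8 did not pass the filter. Without replicate 2 Plac8 was at 0.159, and the log2 change of Cbr2 was -4.26. Without replicate 3 Cbr2 was at 0.0540, while Stab1, Cd55 and Csf1 were under the fold threshold with log2 changes of -0.42, 0.36 and -0.44. Tmem119, Nox4 and Traf6 were called in each of these 3 fits. DESeq2 gave no adjusted p-value for Cbr2 and Plac8, and ComBat-seq with limma-trend put Cd55 under the fold threshold at 0.49.

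**Figure D5:**
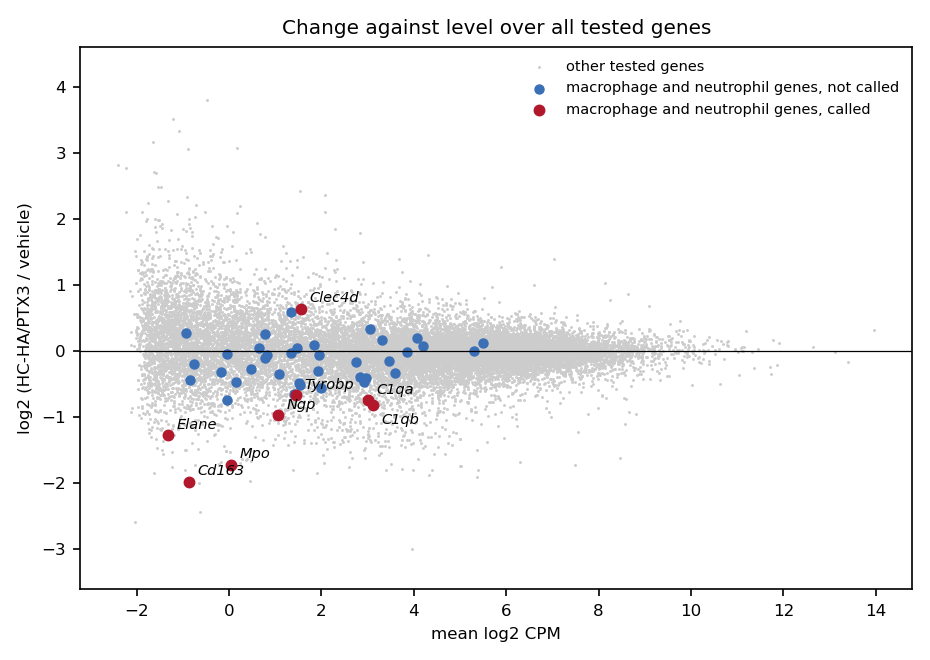
Log2 change of treated over vehicle against mean log2 CPM for all 18277 tested genes in grey, with the 44 macrophage and neutrophil genes in blue, or red where called. The 7 genes called lower lie below 0 and Clec4d above.

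Promoter sequences are shown for the called genes, since 7 of the 8 were called in the same direction. RefSeq windows of 250 bases before to 50 after the start (GRCm38.p6) were found for 35 of the 46 genes, in 38 windows, and not for C1qa, Tyrobp, Csf1r, Csf2rb, Spi1, Adgre1, Cd86, Msr1, Cd14, Tlr4 or Ncf4. GAGGAA, the core bound by PU.1, or its reverse complement stood in 26 of the 38 windows, or 68.4%, beside 28.3% of all 32851 windows. Among the genes called lower, 3 of 5 windows held it. The windows are C1qb at chr4:136886151-136886450 on the minus strand, and on the plus strand Cd163 at chr6:124304401-124304700, Ngp at chr9:110419558-110419857, Mpo at chr11:87793534-87793833, Elane at chr10:79886062-79886361 and Clec4d at chr6:123261857-123262156. Each reads 5′ to 3′ on the strand of its gene, with the motif of either strand in capitals.
C1qb: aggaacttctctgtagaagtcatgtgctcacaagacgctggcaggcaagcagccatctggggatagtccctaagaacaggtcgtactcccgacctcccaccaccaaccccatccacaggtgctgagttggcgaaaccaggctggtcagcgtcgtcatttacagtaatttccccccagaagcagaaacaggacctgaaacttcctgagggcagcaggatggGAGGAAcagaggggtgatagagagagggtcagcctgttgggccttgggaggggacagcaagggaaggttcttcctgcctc
Cd163: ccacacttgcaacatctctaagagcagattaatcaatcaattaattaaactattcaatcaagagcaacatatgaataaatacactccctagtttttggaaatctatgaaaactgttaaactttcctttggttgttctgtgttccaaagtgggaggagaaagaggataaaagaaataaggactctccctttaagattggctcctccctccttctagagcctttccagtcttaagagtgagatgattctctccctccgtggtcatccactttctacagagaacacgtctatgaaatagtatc
Ngp: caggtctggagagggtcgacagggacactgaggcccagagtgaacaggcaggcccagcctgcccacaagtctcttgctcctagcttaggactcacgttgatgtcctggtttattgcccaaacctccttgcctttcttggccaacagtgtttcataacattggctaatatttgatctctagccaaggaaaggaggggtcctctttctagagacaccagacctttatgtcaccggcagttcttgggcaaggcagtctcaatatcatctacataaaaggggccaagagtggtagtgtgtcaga
Mpo: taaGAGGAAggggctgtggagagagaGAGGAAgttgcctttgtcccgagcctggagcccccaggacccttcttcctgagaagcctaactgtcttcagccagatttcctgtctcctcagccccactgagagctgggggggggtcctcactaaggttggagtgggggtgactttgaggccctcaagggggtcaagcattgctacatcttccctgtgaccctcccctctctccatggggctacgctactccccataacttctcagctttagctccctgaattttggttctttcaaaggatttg
Elane: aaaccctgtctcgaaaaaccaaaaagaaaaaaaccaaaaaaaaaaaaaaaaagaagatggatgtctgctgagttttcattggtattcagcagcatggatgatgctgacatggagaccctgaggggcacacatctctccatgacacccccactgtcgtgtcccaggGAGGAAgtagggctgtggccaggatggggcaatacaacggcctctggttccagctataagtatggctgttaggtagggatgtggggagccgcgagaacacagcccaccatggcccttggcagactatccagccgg
Clec4d: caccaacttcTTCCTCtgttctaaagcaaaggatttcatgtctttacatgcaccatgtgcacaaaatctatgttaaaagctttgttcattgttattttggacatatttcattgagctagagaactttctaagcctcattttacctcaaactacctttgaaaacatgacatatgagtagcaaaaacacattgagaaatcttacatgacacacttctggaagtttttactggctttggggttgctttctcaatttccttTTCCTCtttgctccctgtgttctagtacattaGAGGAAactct
The match is a description of these letters and not a binding site. Cd163 and Ngp, both called lower, held none in these windows, and Clec4d, called higher, held 3.

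The called genes outside the C1q cluster lie apart from each other, except that Cd163 and Clec4d share chromosome 6. In the GENCODE M21 annotation of mm10, Mpo lies at chr11:87793581-87804413, Elane at chr10:79886247-79888215, Ngp at chr9:110419747-110423012, Tyrobp at chr7:30413760-30417585, Cd163 at chr6:124304656-124330527 and Clec4d at chr6:123262111-123275265, all on the plus strand. Exons of 6 of the 46 genes overlap exons on the opposite strand, and the strand setting of the counting is not given in the sources used here. For Mpo, Csf1r, Plek, Apobr, Ncf1 and Fcgr2b, reads within the overlapping exon bases therefore cannot be told apart from those of an antisense partner. In each of these genes the overlap covers only part of the exon bases, and reads outside it do not share this uncertainty.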

How the data were processed

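RNA was sequenced from ribosomal RNA-depleted libraries of 6 cultures, 3 with vehicle and 3 with HC-HA/PTX3. The authors aligned read pairs to mm10, removed ribosomal RNA reads and deposited raw counts per gene from featureCounts, not normalized. Their methods name HISAT2 with RefSeq genes for alignment and an Ensembl gene set for counting, whereas the table headers name STAR. The strand setting is not given in the sources used here.

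Groups and replicate numbers came from the sample labels. Genes were filtered with filterByExpr by treatment, which left 18277 of 35976, scaled by TMM and fitted with edgeR 4.0.16 in R 4.3.3 (glmQLFit, glmQLFTest) with replicate number and treatment as terms. Adjustment was Benjamini-Hochberg, over all tested genes. Both thresholds for a call, 0.05 for the adjusted p and 0.5 for the size of the log2 change, follow the methods of the study. The study reports batch effects and a batch term but not which cultures formed a batch, and the labels name none, so the shared replicate number served as the block. The pairing was checked on log2 CPM with a prior count of 2, after subtracting group means. Same-numbered cultures gave correlations of 0.631, 0.536 and 0.774 over 18277 genes, and cultures with unlike numbers gave -0.613 to 0.148. The deviations of a gene cancel out within each group. High values for same numbers therefore bring lower ones for unlike numbers, which are no separate evidence for the pairing. Replicates were distinct libraries: within a group the chi-square of each pair of libraries, divided by its degrees of freedom, was 34.2 to 120. Alternatives were edgeR with no replicate term, with upper-quartile scaling, with raw library sizes, with no low-count filter, with a minimum of 10 counts per culture, with no fold threshold and without each replicate number in turn, and DESeq2 1.42.0, limma-voom (limma 3.58.1) and ComBat-seq (sva 3.50.0) followed by limma-trend. The fits were also run on simulated data, from which no value is given here.

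Values in every culture are given for each called gene and for the 2 genes of each of 9 roles with the highest CPM per kb. Other genes of the list are given by range or, where few were left in a role, by their single log2 changes. The exceptions C1qc, Csf2rb, Csf3r, Adgre1, Clec7a and Ltf were singled out after their values were seen. So were Irak3, Myd88, Mmp8, Ly6g, Il34 and the uncalled fibroblast and glia genes Dcn, Lum, Pdgfra, Fabp7, Kcnj10 and Glul. Of the pathway lists, the called genes, up to 4 a list, and the most abundant gene are named, except for a list that is not reported here. The members and lists were chosen with earlier results of these data known. Exon lengths and positions are those of GENCODE M21, matched by symbol for all 46 genes.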

Additional observations from a re-analysis of the deposited data

How the results depend on the processing

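The 7 genes called lower and Clec4d kept their direction in every alternative in which they were tested, which for the 7 was 4 with at least 10 counts in every culture and 6 without replicate 2. Without the replicate block the numbers of genes called, of list genes lower and of list genes higher were 0, 0 and 0, while the median stayed at -0.23. DESeq2 with the block called 4 lower and 0 higher, with no adjusted p-value for 2 of the 7, and found 9 of the 44 differing between replicate numbers, beside 5078 of all 18277 genes. ComBat-seq with limma-trend called 2 higher. With no low-count filter 11 were called lower and 2 higher, beside 3.98% and 2.63% of all genes, the median was -0.30 and 26 of 46 differed between replicate numbers, beside 7350 of all 30347 genes. That fit put the prior degrees of freedom at infinity, against 8.35 with the filter, so each gene took the spread of the trend, and its adjusted p-values, down to 2.81e-130, are not comparable with the others. With at least 10 counts in every culture 4 were called lower, beside 5.6% of all genes, and the median was -0.15, with 3 of the 7 not tested. With no fold-change threshold 3505 genes were called. Leaving out each replicate number gave 878 to 1571 genes called, 1 to 4 of the list lower, 0 to 1 higher, a median of -0.26 (number 2) to -0.13 (number 3), 2271 to 5180 genes differing between numbers and 6 to 16 of the list. The cause was not tested.

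Of the genes of the list that were not called, 9 changed sign in at least 1 alternative fit. Log2 fold changes became 0.025, 0.0077 and 0.0068 for Cd68 with upper-quartile scaling, raw library sizes and ComBat-seq, 0.0011 for Aif1 with ComBat-seq, and -0.00014 and -0.015 for Lyz2 with DESeq2 and with no low-count filter. Over the fits that leave out each replicate number, the values ranged from -0.097 to 0.32 for Trem2, -0.32 to 0.078 for Fcgr2b, -0.18 to 0.0061 for Ptprc, -0.24 to 0.17 for Aif1, -0.042 to 0.096 for Apobr, -0.024 to 0.025 for Cd68, -0.11 to 0.16 for Lyz2, -0.26 to 0.026 for Cd14 and -0.18 to 0.13 for S100a8. None of these genes was called in any of these fits. Marco and Camp, with 1 to 11 counts in a culture, did not pass the filter and were tested only in the fit without it.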
